A study of Cricetulus griseus with 4 samples.

Results

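25-hydroxyvitamin D3, the main circulating form of vitamin D, was set here directly against a compound described as selective for SREBP inhibition, in CHO-K1 cells. CHO-K1 is an established line from Chinese hamster ovary. The comparison used 2 of the 4 libraries of the series, 1 for each compound, and the libraries of a selective VDR activator and of the solvent DMSO are given beside them as levels. Per the labels, all 4 cultures were kept for 24 hr with their compound or DMSO in medium whose serum (5%) had been stripped of lipids and which held compactin, a statin, and mevalonate at 50 µM each, so the controls carried the statin and the lack of sterols. The labels give no dose for any compound, so whether the doses were matched in effect is unknown. Of 20754 genes in the table, 11314 were measured, meaning at least 10 counts and 1 CPM (counts of a gene per 1000000 of the scaled library size) with 25-hydroxyvitamin D3 or with the SREBP inhibitor.

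Sterol regulatory element-binding proteins (SREBPs) are transcription factors held in the endoplasmic reticulum by SCAP and INSIG. When sterols fall they are carried to the Golgi, cut free, and switch on cholesterol and fatty acid synthesis; a statin in sterol-poor medium is a standard way to bring this about. The vitamin D receptor (VDR) is a nuclear receptor that pairs with RXR and is activated by vitamin D metabolites. 25-hydroxyvitamin D3 is known to act on both, by binding VDR and by lowering SREBP through SCAP. The SREBP inhibitor carries, by its label, 1 of the 2 activities, and the comparison shows where the 2 treatments left different RNA levels.

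Total counts were 21335614 with 25-hydroxyvitamin D3 and 23286632 with the SREBP inhibitor, and 1 CPM stood for 20.4 and 23.2 counts. Of 24 listed markers of other lineages 4 were measured, summing to 22.4 CPM with 25-hydroxyvitamin D3 and 15.9 CPM with the SREBP inhibitor. Ptprc and Krt18 were at 0 counts in both libraries, and Cd68, a lysosomal protein of macrophages, had 14.6 and 4.52 CPM. Vim, a mesenchymal filament expressed by this line, had 787 CPM with 25-hydroxyvitamin D3 and 1430 CPM with the SREBP inhibitor. Fn1, listed beside Vim as a marker of this line, had 373 and 636 CPM. Col1a1, a collagen on the same marker list, was under the limit for a measured gene, at 0.442 and 0.302 CPM. Mitochondrial-encoded mRNAs took 0.753% of the counts with 25-hydroxyvitamin D3 (95% Clopper-Pearson interval 0.750 to 0.757) and 5.25% with the SREBP inhibitor (5.24 to 5.26), against 5.93% with the VDR activator and 6.81% in DMSO. With 1 library on each side there is no test, no p-value and no replicate check. The 95% intervals beside folds account for counting error alone and set 1 library against another. In bulk RNA, fewer cells that express a gene and less of its RNA per cell cannot be told apart.

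At a 2-fold limit, a log2(CPM + 1) difference of 1 or more, 356 genes (3.15% of those measured) were higher with 25-hydroxyvitamin D3 than with the SREBP inhibitor and 685 (6.05%) were lower, 9.2% in either direction. At 4-fold the counts were 24 and 87 (0.981% in either direction), and at 8-fold 7 and 17. The median gene differed by 0.02 on the log2 scale, and 70.1% of genes lay within 1.5-fold. The shares of 3.15% higher and 6.05% lower are the background for every list count given below. The split leaned further to lower genes, 233 higher and 845 lower, when libraries were scaled to the authors' FPKM totals, a change that moved the median of all genes by -0.11. Lower calls were most frequent among weakly expressed genes. Of 1465 genes with a mean of 2 to 10 CPM, 14.7% were lower and 2.18% higher, whereas of 1080 genes at 200 CPM or more, 3.52% were lower and 4.81% higher.

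**Figure D1:**
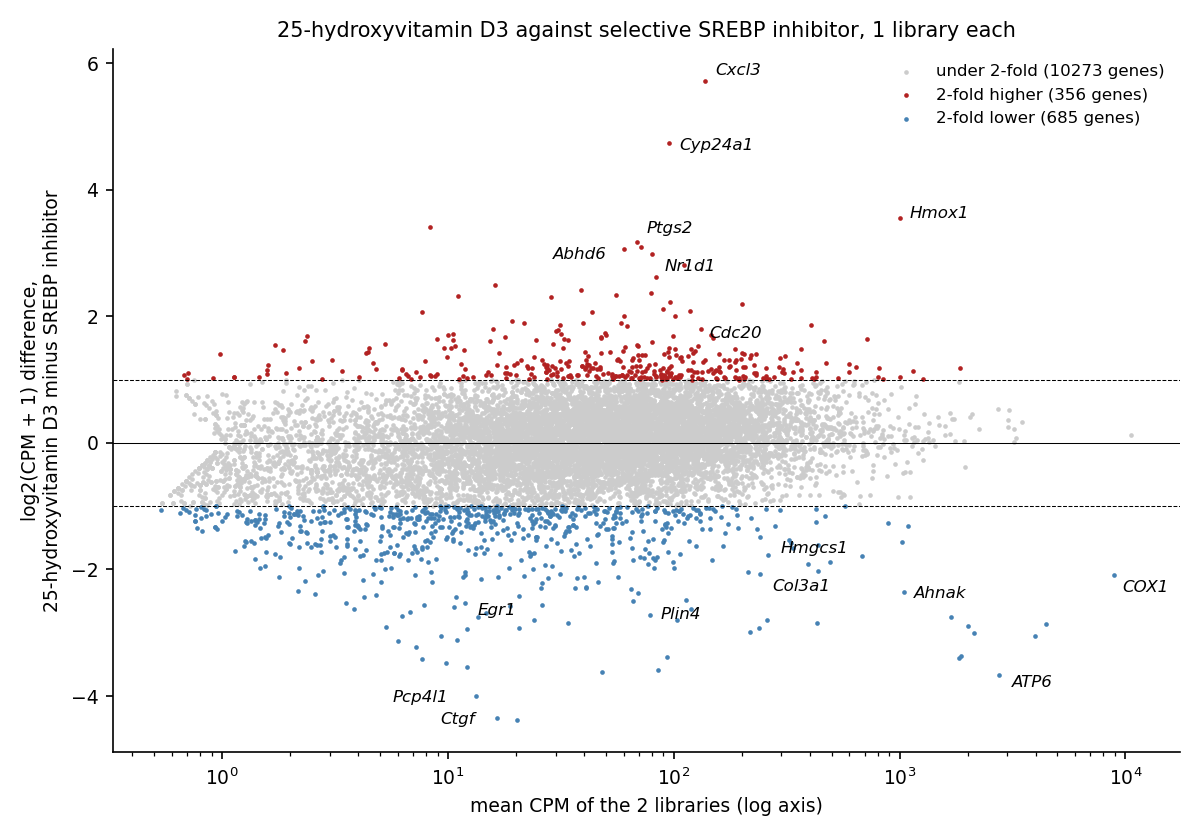
Each point is 1 of 11314 measured genes, by its mean CPM in the 2 libraries (log axis) and its log2(CPM + 1) difference, 25-hydroxyvitamin D3 minus SREBP inhibitor. Red points are the 356 genes at least 2-fold higher with 25-hydroxyvitamin D3, blue points the 685 at least 2-fold lower; Cxcl3 and Cyp24a1 stand at the top, and Ctgf and the abundant mitochondrial mRNAs ATP6 and COX1 below.

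Among genes of vitamin D metabolism, Cyp24a1 was the one that differed by 2-fold. It encodes the 24-hydroxylase that inactivates vitamin D metabolites and is the textbook VDR target. It had 185 CPM with 25-hydroxyvitamin D3 and 5.99 CPM with the SREBP inhibitor, with 258 CPM for the VDR activator and 3.27 CPM in DMSO. The gene was 30.9-fold higher with 25-hydroxyvitamin D3 than with the SREBP inhibitor (26.1 to 36.8). The 2 libraries with a VDR ligand were both far above the other two. The receptor itself, Vdr, stood at 42.6 CPM with 25-hydroxyvitamin D3 and 38.5 CPM with the SREBP inhibitor, and its partner Rxra at 57.7 and 86.6 CPM. Cyp2r1 and Cyp27a1, which make 25-hydroxyvitamin D3 from vitamin D, were at 0 counts in both libraries. Of 20 genes listed for vitamin D metabolism and receptor partners, 14 were measured, 1 was 2-fold higher and none lower.

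Genes listed as VDR targets from other tissues and species gave no common direction. Of 48 listed, 19 were measured, 3 were higher and 3 lower, and their median of 0.05 changed sign with scaling (-0.01 with equal totals, -0.06 with FPKM totals). With a pseudocount of 5 CPM, 2 were higher and 1 lower, as Hbegf, Pdlim2 and Cdkn1a fell under 2-fold. The lower count was 2 with DESeq2 size factors and 4 with FPKM totals. Beside Cyp24a1, the higher members were Abcb1, a drug efflux pump, at 335 CPM with 25-hydroxyvitamin D3 and 126 CPM with the SREBP inhibitor, and Hbegf, an EGF receptor ligand, at 11.7 and 4.18 CPM. Neither followed the VDR activator: Abcb1 had 86.0 CPM with it and 71.5 CPM in DMSO, and Hbegf had 4.01 and 4.51 CPM. The lower members were the protease inhibitor Serpinb1 at 11.7 CPM with 25-hydroxyvitamin D3 and 61.1 CPM with the SREBP inhibitor, Pdlim2 at 6.48 and 17.5 CPM, and the cell cycle inhibitor Cdkn1a at 33.7 and 69.4 CPM. Cited1 and Sulf2 were placed on this list with earlier results of these data known. Cited1, a transcriptional coregulator, had 20.1 CPM with 25-hydroxyvitamin D3 and 25.2 CPM with the SREBP inhibitor, although the VDR activator library had 144 CPM and DMSO 32.3 CPM. Sulf2, a heparan sulfate sulfatase, had 75.4 and 56.7 CPM, with 112 CPM for the VDR activator and 36.7 CPM in DMSO.

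The VDR activator against DMSO is a comparison that shares no library with this one, although the scaling factors came from all 4 libraries together. It too has 1 library on each side, so an effect of the ligand and variation between libraries cannot be told apart. There, 21 of 11431 measured genes were 2-fold higher (0.184%) and 37 lower (0.324%), 0.507% in either direction. All 21 higher genes were measured here: 8 were also higher with 25-hydroxyvitamin D3 than with the SREBP inhibitor, 38.1% against 3.15% of all genes, and 2 were lower. Of the 37 lower genes 35 were measured here, of which 29 were lower and none higher, 82.9% against 6.05% of all genes, with a median of -1.53. Many of the 35 were weakly expressed here, where lower calls were more frequent (14.7% of all genes with a mean of 2 to 10 CPM). The shared genes make up 2.25% of the 356 higher and 4.23% of the 685 lower genes of this comparison. These shares are capped, because only 21 and 35 genes could be shared. With a limit of 1.5-fold for the VDR activator, 279 genes (2.44%) were higher than in DMSO and 219 (1.92%) lower. Of these, 61 of 276 measured higher genes (22.1%) were 2-fold higher here and 99 of 200 lower genes (49.5%) were 2-fold lower. At that limit the shared genes make up 17.1% of the 356 higher and 14.5% of the 685 lower genes.

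The lower genes shared by both comparisons had varied roles. Ctgf, a secreted matricellular protein of the CCN family, had 0.638 CPM with 25-hydroxyvitamin D3 and 32.2 CPM with the SREBP inhibitor, and 20.2 CPM with the VDR activator against 91.7 CPM in DMSO. The water channel Aqp1 had 0.343 and 7.32 CPM in the first pair of libraries and 10.9 and 65.9 CPM in the second. Lama3, a laminin chain, had 0.638 and 7.84 CPM, then 6.55 and 27.0 CPM. The library with a VDR ligand was the lower of each pair because the genes were chosen that way. In each of these genes the SREBP inhibitor library was below DMSO as well, which the choice did not require. Other members with the same pattern were Arnt2, a bHLH-PAS transcription factor subunit (1.23 and 17.4 CPM, then 9.53 and 28.1 CPM), the pattern receptor Nod2 (2.31 and 19.0 CPM, then 30.9 and 66.0 CPM) and Cited2, a transcriptional coregulator (18.6 and 50.4 CPM, then 36.2 and 75.9 CPM).

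On the higher side the shared genes beside Cyp24a1 were smaller in size. Junb, an AP-1 subunit, had 160 CPM with 25-hydroxyvitamin D3 and 33.4 CPM with the SREBP inhibitor, then 46.2 CPM with the VDR activator and 20.1 CPM in DMSO. The urea transporter Slc14a1 had 76.3 and 27.6 CPM, then 49.4 and 21.6 CPM, and Cdca7, a chromatin factor, had 211 and 94.9 CPM, then 53.8 and 24.7 CPM. Myc, a growth-promoting transcription factor, had 172 and 83.5 CPM, then 42.4 and 20.3 CPM, so that its 2-fold difference stood at a different level in each pair. Some genes parted ways. Plekhg4, a guanine nucleotide exchange factor, was at 1.18 CPM with 25-hydroxyvitamin D3 and 5.13 CPM with the SREBP inhibitor, but at 15.3 CPM with the VDR activator and 6.36 CPM in DMSO. Thbs1, a matricellular protein, was at 341 and 240 CPM, but at 187 and 456 CPM in the second pair, and the chemokine Ccl2 was at 7.95 and 8.62 CPM, then 4.38 and 18.5 CPM.

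Across the 11198 genes measured in both comparisons, the 2 sets of differences had a Pearson correlation of 0.45 and a Spearman rank correlation of 0.43. Genes are not independent replicates, so this describes these 4 libraries only. Among 338 genes higher with 25-hydroxyvitamin D3 than with the SREBP inhibitor, 77.8% were above 0 for the VDR activator against DMSO, as were 52.6% of all genes. Of 685 lower genes, 79.1% were below 0 there, as were 47.4% of all genes. The sizes were small, with medians of 0.23 and -0.22 on the log2 scale, against 0.01 for all genes.

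**Figure D2:**
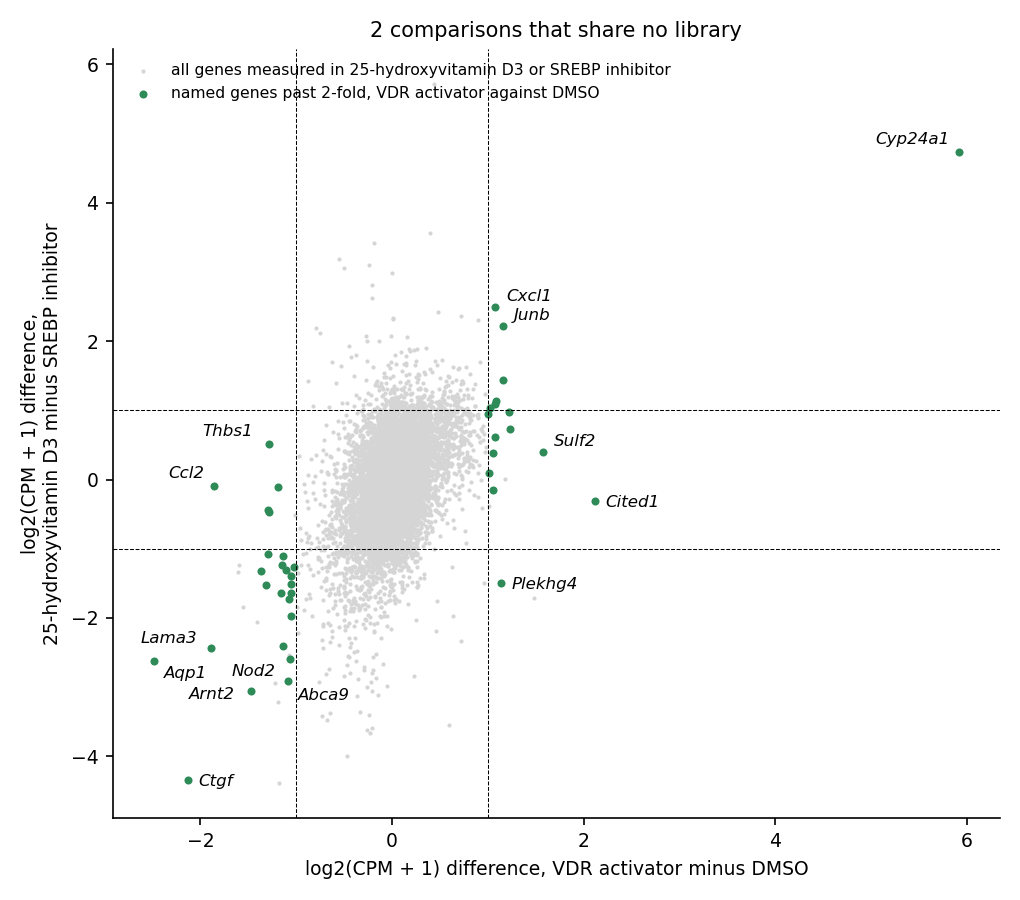
Each grey point is a measured gene, by its log2(CPM + 1) difference for VDR activator minus DMSO (x axis) and 25-hydroxyvitamin D3 minus SREBP inhibitor (y axis), comparisons with no common library; dashed lines mark 2-fold. Green points are the genes with a symbol past 2-fold on the x axis: Cyp24a1 lies far up at the right, most lower genes such as Ctgf and Lama3 lie low on both axes, and Cited1, Plekhg4 and Thbs1 lie off this diagonal.

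In the SREBP arm, where both compounds are known or labelled to act, several sterol synthesis genes were lower with 25-hydroxyvitamin D3 than with the SREBP inhibitor. All 9 listed genes of the mevalonate pathway to squalene were measured and below 0, 5 of them by 2-fold, with a median difference of -1.03. Hmgcs1, the synthase that makes HMG-CoA, had 118 CPM with 25-hydroxyvitamin D3 and 404 CPM with the SREBP inhibitor, with 1941 CPM for the VDR activator and 2147 CPM in DMSO. It was 3.43-fold lower with 25-hydroxyvitamin D3 than with the SREBP inhibitor (3.28 to 3.59). Acat2, the cytosolic thiolase before it, had 80.3 and 250 CPM, then 981 and 995 CPM in the VDR activator and DMSO libraries. Idi1, which isomerises isopentenyl diphosphate, had 60.7 and 189 CPM, then 764 and 904 CPM. Both treated libraries were thus well under DMSO for these genes, and the 25-hydroxyvitamin D3 library was the lower one.

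The other mevalonate genes spread over smaller differences. Mvd, the decarboxylase that ends the mevalonate steps, was 2.30-fold lower (33.3 CPM with 25-hydroxyvitamin D3, 76.4 CPM with the SREBP inhibitor) and Fdps, which makes farnesyl diphosphate, 2.06-fold lower (91.2 and 188 CPM). Fdft1, squalene synthase, differed least, at 62.4 and 86.1 CPM.

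From squalene to cholesterol, 12 of 12 listed genes were measured, 11 were below 0 and 2 were 2-fold lower, with a median of -0.76. Lss, which closes the sterol rings, had 61.8 CPM with 25-hydroxyvitamin D3 and 147 CPM with the SREBP inhibitor, then 601 CPM with the VDR activator and 677 CPM in DMSO. Dhcr7, which acts on 7-dehydrocholesterol, the precursor also of vitamin D3, had 72.3 and 119 CPM, then 333 and 347 CPM. The step enzymes Sqle (178 and 329 CPM), Cyp51a1 (287 and 512 CPM), Msmo1 (143 and 246 CPM) and Sc5d (115 and 215 CPM) each stayed within 2-fold. Hsd17b7, a sterol ketoreductase, had 13.5 CPM with 25-hydroxyvitamin D3 and 13.6 CPM with the SREBP inhibitor, and both were under the 69.3 CPM of DMSO. The differences between the compounds were thus uneven along the pathway.

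**Figure D3:**
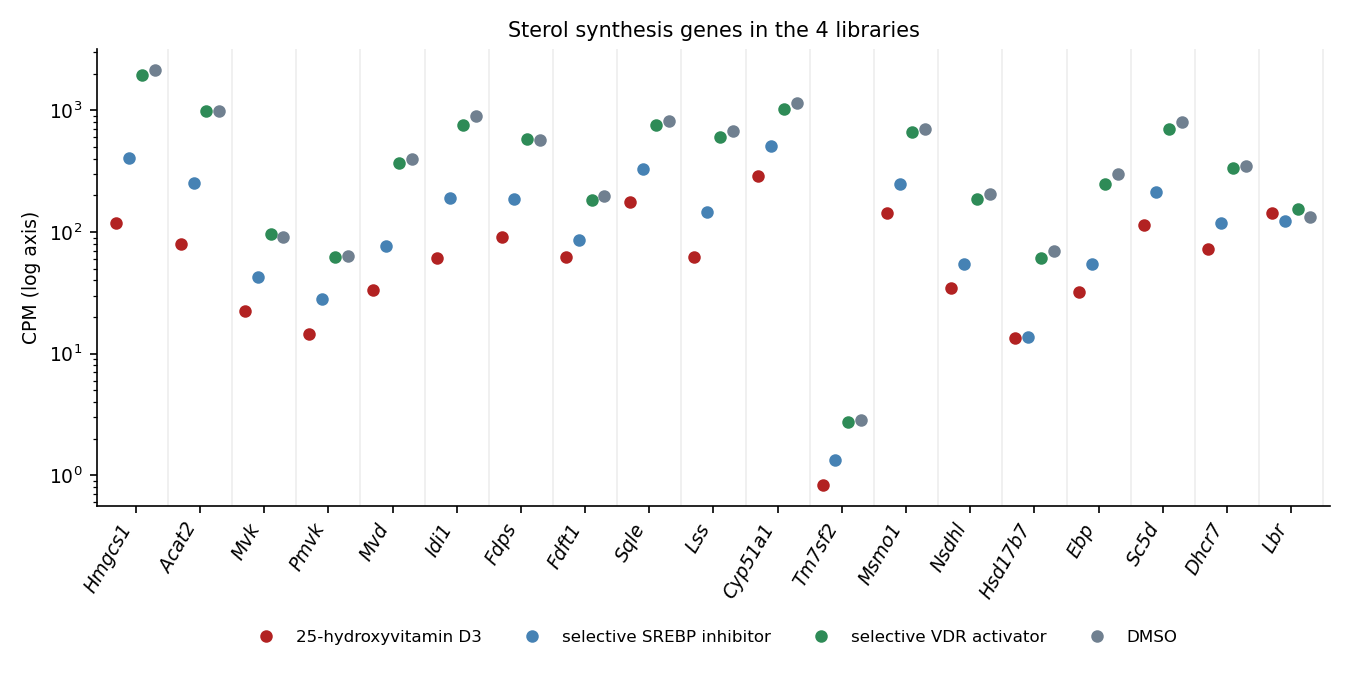
CPM (log axis) of 19 measured sterol synthesis genes in the 4 libraries, mevalonate genes first, with 1 point per library. The red points (25-hydroxyvitamin D3) lie under the blue points (SREBP inhibitor) for 18 of the 19 genes, widely for Hmgcs1, while Hsd17b7 is nearly level and Lbr has red above blue; the VDR activator and DMSO points lie close together at the top for most genes.

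Genes that sense sterols and take them up differed less. Of 16 measured members of this list none reached 2-fold, and the median was -0.25. Insig1, which retains SCAP when sterols are plentiful and is itself an SREBP target, was closest with 61.9 CPM with 25-hydroxyvitamin D3 and 118 CPM with the SREBP inhibitor, against 410 CPM with the VDR activator and 452 CPM in DMSO. The factors themselves stood at 331 and 386 CPM for Srebf2 and 10.0 and 14.8 CPM for Srebf1, and Scap at 160 and 236 CPM.

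Fatty acid genes were mixed: 3 of 23 measured were lower and 1 higher, with a median of -0.28. Lower were Idh1, a cytosolic NADPH source (63.6 CPM with 25-hydroxyvitamin D3, 231 CPM with the SREBP inhibitor), Acss2, which makes acetyl-CoA from acetate (16.0 and 42.3 CPM), and Aacs, which activates acetoacetate (36.4 and 79.2 CPM). Fasn, fatty acid synthase, had 514 and 787 CPM, with 1600 CPM for the VDR activator and 1561 CPM in DMSO. Acsl5, which activates long-chain fatty acids, went the other way, at 1086 and 346 CPM, with 218 CPM for the VDR activator and 157 CPM in DMSO. It was 3.14-fold higher with 25-hydroxyvitamin D3 than with the SREBP inhibitor (3.06 to 3.22).

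The LXR list separated its members. LXRs are nuclear receptors for oxysterols that drive cholesterol efflux. Abca1, the cholesterol exporter and a main LXR target, had 644 CPM with 25-hydroxyvitamin D3 and 600 CPM with the SREBP inhibitor, against 46.7 CPM with the VDR activator and 61.4 CPM in DMSO. The pair of high libraries differed by 1.07-fold from each other. Lpl, lipoprotein lipase, had 210 and 778 CPM, then 131 and 247 CPM, so the SREBP inhibitor library alone was above DMSO. Nr1h3, which encodes LXRα, had 18.0 and 48.8 CPM, then 38.0 and 51.2 CPM, and Rab7b, a small GTPase, 4.51 and 23.6 CPM, then 23.1 and 23.2 CPM. In all, 3 of 11 measured members were 2-fold lower and none higher, and the median was -0.80.

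Of 17 measured lipid droplet genes, 3 were higher and 3 lower; with a pseudocount of 5 CPM, Cd36 and Lpin1, both weakly expressed, were no longer past 2-fold. Higher were Abhd6, a monoacylglycerol lipase, Dgat2, the last enzyme of triglyceride synthesis, and Hilpda, an inhibitor of triglyceride lipase. Abhd6 had 108 CPM with 25-hydroxyvitamin D3 and 12.0 CPM with the SREBP inhibitor, with 0.778 CPM for the VDR activator and 1.52 CPM in DMSO; Dgat2 had 92.8 and 24.2 CPM, then 10.6 and 8.06 CPM; Hilpda had 70.9 and 16.2 CPM, then 7.20 and 6.36 CPM. In each of the 3 the SREBP inhibitor library lay between the 25-hydroxyvitamin D3 and DMSO libraries. Lower were the droplet coat protein Plin4 (19.9 and 137 CPM), the fatty acid receptor Cd36 (3.19 and 9.05 CPM) and the phosphatidate phosphatase Lpin1 (7.56 and 17.8 CPM). Plin2, the common droplet coat, had 929 and 638 CPM. Of 16 measured genes of fatty acid oxidation only Cpt1a, the gate of mitochondrial import, reached the 2-fold limit, at 40.6 and 83.1 CPM, and it did not with DESeq2 size factors.

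Messenger RNAs encoded in mitochondrial DNA had much lower CPM with 25-hydroxyvitamin D3. The libraries were made from poly(A) RNA, so lower abundance and lower capture of these mRNAs cannot be told apart. All 13 were at least 4-fold lower than with the SREBP inhibitor, with a median of -2.98. COX1, a cytochrome oxidase subunit, had 3380 CPM with 25-hydroxyvitamin D3 and 14370 CPM with the SREBP inhibitor, against 16937 CPM with the VDR activator and 19305 CPM in DMSO. Its 4.25-fold difference was the least. ATP6, an ATP synthase subunit, had 402 and 5107 CPM, then 5213 and 6104 CPM, a 12.7-fold difference (12.4 to 13.0). ND6, a complex I subunit and the only one of these mRNAs encoded on the light strand, had 54.9 and 423 CPM, then 538 and 628 CPM, 7.71-fold lower. ATP8 overlaps ATP6, and ND4L overlaps ND4, so their reads may be shared; strand use in counting is not given in the sources used here. For all 13 mRNAs the 25-hydroxyvitamin D3 library was alone at a low level.

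The nuclear genes that work with them did not show that difference. None of 28 measured respiratory chain subunits from the nucleus was past 2-fold, with a median of 0.19; Cyc1, cytochrome c1, was highest at 179 CPM with 25-hydroxyvitamin D3 and 101 CPM with the SREBP inhibitor. Mitochondrial ribosomal proteins had 0 of 39 past 2-fold and a median of 0.31. Of 26 measured genes for mitochondrial transcription and RNA, 1 was higher: Tfb1m, a methyltransferase of mitochondrial ribosomal RNA, at 47.0 and 22.0 CPM, which fell under 2-fold with FPKM totals. Tfam, which packages mitochondrial DNA, had 70.1 and 63.6 CPM and Polrmt, the mitochondrial RNA polymerase, 81.2 and 59.2 CPM. Leaving the 13 mRNAs out of the scaling gave 377 higher and 680 lower genes in the whole comparison, close to the 356 and 685 with them.

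**Figure D4:**
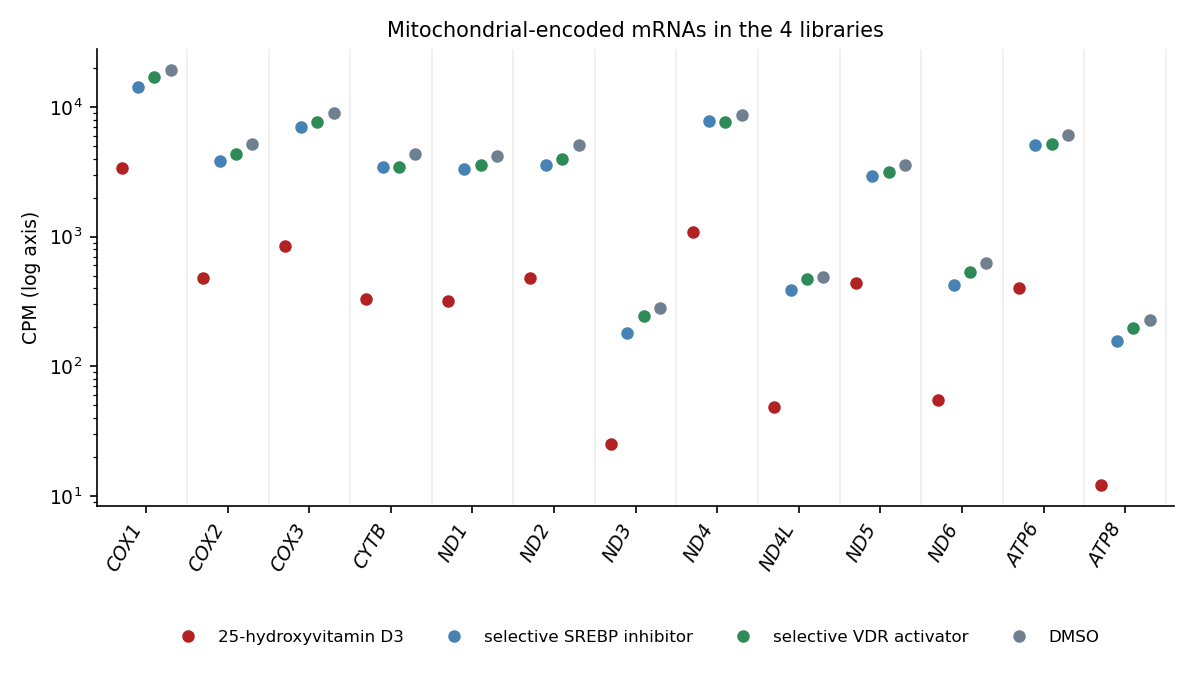
CPM (log axis) of the 13 mitochondrial-encoded mRNAs in the 4 libraries, 1 point per library. The red points (25-hydroxyvitamin D3) lie below all others for each gene, from 4.25-fold under the SREBP inhibitor for COX1 to 12.9-fold for ATP8, and the other 3 libraries lie close together.

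A share of the stress-response genes was higher with 25-hydroxyvitamin D3. The integrated stress response slows translation and, through ATF4 and CHOP, switches on amino acid supply genes. Of 21 measured members of this list, 7 were higher and 1 lower, beside 3.15% and 6.05% of all measured genes. The list median was 0.76. Against DMSO, the library both share, the list's medians were 1.93 with 25-hydroxyvitamin D3 and 1.43 with the SREBP inhibitor. Atf4 itself had 433 CPM with 25-hydroxyvitamin D3 and 421 CPM with the SREBP inhibitor, against 120 CPM with the VDR activator and 114 CPM in DMSO, and Ddit3, which encodes CHOP, 110 and 67.0 CPM, then 9.45 and 8.98 CPM. Among the targets, Atf3, a stress-induced repressor, had 48.0 and 8.92 CPM, then 3.27 and 1.29 CPM, a 5.39-fold difference (4.63 to 6.29). Ppp1r15a, the phosphatase subunit that ends the response, had 192 and 44.8 CPM, then 18.5 and 18.6 CPM. Chac1, which degrades glutathione, had 48.4 and 13.3 CPM, Stc2, a secreted glycoprotein, 152 and 46.4 CPM, and Asns, asparagine synthetase, 226 and 109 CPM.

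Of the 21 members, 6 were below 0. Ddit4, an inhibitor of mTORC1 signalling, had 4.37 CPM with 25-hydroxyvitamin D3 and 8.70 CPM with the SREBP inhibitor, against 19.4 CPM with the VDR activator and 21.0 CPM in DMSO. Trib3, a pseudokinase target of CHOP, had 213 CPM with 25-hydroxyvitamin D3 and 222 CPM with the SREBP inhibitor, against 45.6 CPM with the VDR activator and 55.2 CPM in DMSO. Atf5, an ATF4 relative, was lower at 46.2 and 135 CPM, then 23.2 and 20.8 CPM, a 2.92-fold difference (2.72 to 3.15). The SREBP inhibitor library was thus the highest of the 4 for Atf5, while Atf4 and Trib3 were alike in the 2 treated libraries.

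Amino acid and one-carbon genes gave further members in the same direction, some of them also on the ATF4 and CHOP list. The shares over all measured genes were 3.15% higher and 6.05% lower. Of 15 measured serine and one-carbon enzymes 5 were higher and none lower, median 0.78: Mthfd2l (66.4 CPM with 25-hydroxyvitamin D3, 11.6 CPM with the SREBP inhibitor), Mthfd1l (312 and 123 CPM), Mthfd1 (409 and 178 CPM), Shmt1 (66.0 and 28.4 CPM) and Mthfd2 (421 and 196 CPM), all folate enzymes. Of 20 cytosolic aminoacyl-tRNA synthetases 5 were higher, including Lars (504 and 226 CPM) and Yars (411 and 190 CPM), with a median of 0.75; the count dropped to 2 with equal totals or FPKM totals. Transporters were mixed, 4 higher and 2 lower of 18. The higher ones were Slc7a11 (293 and 109 CPM), which imports cystine, Slc1a5 (138 and 53.2 CPM), Slc3a2 (840 and 352 CPM) and Slc7a5 (553 and 270 CPM). Slc7a11 and Slc3a2 were already counted on the ATF4 and CHOP list. The lower ones were the taurine transporter Slc6a6 (165 and 480 CPM) and Slc43a2 (28.2 and 68.9 CPM).

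Endoplasmic reticulum chaperones did not share the difference. Of 29 measured genes only Atf6, a sensor of unfolded proteins, was past 2-fold, at 542 CPM with 25-hydroxyvitamin D3 and 193 CPM with the SREBP inhibitor, and the median of 0.01 became -0.05 with equal totals and -0.11 with FPKM totals. Hspa5, the main chaperone of this compartment, had 3888 and 3103 CPM, with 2216 CPM for the VDR activator and 2438 CPM in DMSO. Mitochondrial chaperones stood out among 22 measured heat shock genes, with Hspa9 at 1567 and 716 CPM, then 252 and 207 CPM, and Hspd1 at 1691 and 838 CPM, then 415 and 294 CPM; Hspd1 was under 2-fold with equal totals or FPKM totals. Hspa8, a cytosolic chaperone with near-identical copies that could share its reads, was lower at 518 and 1252 CPM. All 34 measured proteasome genes were above 0 with a median of 0.43 and none past 2-fold; the smallest difference, 0.06 for Psmb4, is under the shift of -0.11 that FPKM totals give to all genes.

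Antioxidant genes were led by Hmox1, which breaks down heme. Hmox1 had 1843 CPM with 25-hydroxyvitamin D3 and 156 CPM with the SREBP inhibitor, against 64.7 CPM with the VDR activator and 49.1 CPM in DMSO, an 11.8-fold difference (11.4 to 12.3). Of 25 measured NRF2 targets, 4 were higher and 1 lower, beside 3.15% and 6.05% of all measured genes. The list median was 0.17, and Slc7a11, counted above, was 1 of the 4. Txnrd1, thioredoxin reductase, had 2570 and 1125 CPM, and Gclm, a subunit of the enzyme that starts glutathione synthesis, 253 and 124 CPM. Nqo1, a quinone reductase and a common marker of NRF2 activity, was 3.11-fold lower at 14.8 and 46.1 CPM, then 90.1 and 82.8 CPM. Among glutathione and thioredoxin enzymes, 4 of 36 were higher and 4 lower. The split was 3 and 4 with equal totals or FPKM totals. With DESeq2 size factors or a pseudocount of 5 CPM the split was 4 and 2. Of the higher ones, Gclm and Txnrd1 were also counted as NRF2 targets and Chac1 on the ATF4 and CHOP list. Gss, glutathione synthetase, had 638 and 175 CPM, whereas the transferases Gstm7 (48.1 and 164 CPM) and Gstp1 (279 and 574 CPM) were lower; close relatives of these transferases make their counts less certain.

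Of 27 measured cell division genes, 12 were 2-fold higher with 25-hydroxyvitamin D3, against 3.15% of all measured genes, and 15 did not pass 2-fold. All 27 were above 0, with a median of 0.93; the count past 2-fold was 9 with equal totals and 7 with FPKM totals. Cdc20, which activates the anaphase-promoting complex, had 192 CPM with 25-hydroxyvitamin D3 and 65.8 CPM with the SREBP inhibitor, against 68.3 CPM with the VDR activator and 38.5 CPM in DMSO. Ube2c, a ubiquitin-conjugating enzyme of mitosis, had 133 and 49.3 CPM, then 77.1 and 49.5 CPM, and Ccnb1, cyclin B1, 213 and 95.8 CPM, then 139 and 84.9 CPM. For these 3 genes the 25-hydroxyvitamin D3 library was highest and the VDR activator library second. Top2a, a DNA topoisomerase of dividing cells, had 1128 and 558 CPM, then 1059 and 613 CPM, so that the 2 libraries with a VDR ligand were close. Mki67, a marker of cycling cells, had 264 and 226 CPM, then 440 CPM with the VDR activator and 273 CPM in DMSO, so that its order was another one. Summed over the 27 genes, levels were 4609 CPM with 25-hydroxyvitamin D3 and 2470 CPM with the SREBP inhibitor, against 3941 CPM with the VDR activator and 2473 CPM in DMSO.

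DNA replication genes differed less, with 2 of 34 higher, 2 lower and a median of 0.44. Among all measured genes 3.15% were higher and 6.05% lower, so the count of lower genes was near the general share. Rrm1, a ribonucleotide reductase subunit, had 219 CPM with 25-hydroxyvitamin D3 and 98.9 CPM with the SREBP inhibitor, and Pola1, the priming DNA polymerase, 183 and 83.5 CPM. The lower pair were the cyclin-dependent kinase inhibitors Cdkn2c (10.2 and 28.9 CPM) and Cdkn1a. Of 21 measured p53 targets, 4 were lower, Tp53inp1 (19.2 and 113 CPM), Btg2, Fas and Cdkn1a, and Plk2 was higher at 328 and 71.1 CPM; their median of 0.02 became -0.03 with equal totals and -0.08 with FPKM totals. Only 1 of these 4, Tp53inp1, stayed lower with a pseudocount of 5 CPM.

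Ribosome production genes were mostly above 0. Of 28 measured genes for ribosome biogenesis and RNA polymerase I, 27 were above 0 and 5 past 2-fold, with a median of 0.87; the count was 3 with equal totals or FPKM totals and 8 with DESeq2 size factors. Rrp9, a small subunit processing factor, had 149 CPM with 25-hydroxyvitamin D3 and 56.3 CPM with the SREBP inhibitor, then 24.9 CPM with the VDR activator and 14.6 CPM in DMSO. Ncl, nucleolin, had 2432 and 1244 CPM, then 640 and 501 CPM. The 4 libraries took the same order for both genes, with the SREBP inhibitor between 25-hydroxyvitamin D3 and the other two. Of 36 cytosolic ribosomal proteins none was past 2-fold, with a median of 0.12. In the MAX network of 11 genes, Myc was higher as above and Mxd4, an antagonist of Myc, lower at 44.8 and 134 CPM; Myc dropped under 2-fold with equal totals or FPKM totals.

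Chemokines and inflammatory genes held the largest single difference. Cxcl3, a neutrophil chemokine, had 271 CPM with 25-hydroxyvitamin D3 and 4.18 CPM with the SREBP inhibitor, against 1.35 CPM with the VDR activator and 0.737 CPM in DMSO. It was 64.8-fold higher with 25-hydroxyvitamin D3 than with the SREBP inhibitor from counts of 5521 and 97, and the 25-hydroxyvitamin D3 library was alone in its high level. Its relative Cxcl1 had 28.1 and 4.18 CPM, then 10.7 and 4.56 CPM. Ptgs2, the inducible prostaglandin synthase, had 124 and 12.8 CPM, then 6.38 and 9.81 CPM, a 9.70-fold difference (8.60 to 11.0), and the cytokine Lif 146 and 32.8 CPM, then 22.3 and 38.2 CPM.

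In all, 5 of 17 measured genes of this list were higher and 3 lower, beside 3.15% and 6.05% of all measured genes. The list median was 0.58. The 3 lower became 5 with FPKM totals or a pseudocount of 0.1 CPM and 1 with a pseudocount of 5 CPM, which took Ptges and Cxcl12 under 2-fold, or a minimum of 5 CPM; the median ran between 0.33 and 0.81. The fifth higher gene was Icam1, an adhesion molecule, at 358 CPM with 25-hydroxyvitamin D3 and 157 CPM with the SREBP inhibitor. Lower were Ptges, a prostaglandin E synthase (0.491 and 3.49 CPM), the chemokine receptor Ackr3 (9.27 and 28.7 CPM) and Cxcl12. Cxcl12, the ligand of Ackr3, had 0 counts with 25-hydroxyvitamin D3 and 38 with the SREBP inhibitor, at least 11.1-fold lower against a floor of 3 counts in the library at 0. Cxcl12 had 3.52 CPM with the VDR activator and 4.15 CPM in DMSO. The interferon list had 0 of 13 past 2-fold.

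Immediate early and growth signal genes split by member. Of 24 measured AP-1 and EGR factors, 5 were higher and 5 lower, with a median of 0.34. The split was 3 and 5 with equal totals or FPKM totals, 4 and 2 with a pseudocount of 5 CPM, and 5 and 2 of 17 with a minimum of 5 CPM. Beside Junb and Atf3, the higher ones were Fosl1 (123 CPM with 25-hydroxyvitamin D3, 58.7 CPM with the SREBP inhibitor), Zfp36 (25.0 and 8.75 CPM) and Id3 (10.5 and 4.61 CPM). The lower ones included Egr1, a growth-induced zinc finger factor, at 5.30 and 42.6 CPM, then 46.1 CPM with the VDR activator and 62.7 CPM in DMSO, and Ier3 at 13.1 and 61.4 CPM. Of 19 genes of the ERK feedback list, 4 were lower and 2 higher. The phosphatase Dusp6 had 8.59 and 33.4 CPM, then 36.1 and 72.8 CPM, and the inhibitor Spry2 16.8 and 42.8 CPM, whereas Dusp16 had 197 and 79.0 CPM and Phlda1 30.9 and 7.37 CPM.

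Within the CCN family the members went opposite ways. Ctgf was 50.5-fold lower with 25-hydroxyvitamin D3 than with the SREBP inhibitor (29.3 to 95.2), and Wisp2 was lower too, at 1.57 and 14.1 CPM. Cyr61, the founding CCN member, was 4.14-fold higher at 97.0 CPM with 25-hydroxyvitamin D3 and 23.4 CPM with the SREBP inhibitor, then 9.08 CPM with the VDR activator and 10.1 CPM in DMSO. F3, tissue factor, was also higher, at 6.77 and 1.90 CPM. These were the 4 of 17 measured members of the CCN and YAP target list past 2-fold.

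Of 42 listed collagens, laminins and matrix genes, 23 were measured, with a median of -0.82. Of these, 9 were 2-fold lower with 25-hydroxyvitamin D3, against 6.05% of all measured genes, none was higher and 14 did not pass 2-fold. Col3a1, a fibrillar collagen, had 92.1 CPM with 25-hydroxyvitamin D3 and 390 CPM with the SREBP inhibitor, then 575 CPM with the VDR activator and 916 CPM in DMSO. Hspg2, the basement membrane proteoglycan perlecan, had 306 and 1055 CPM, then 1256 and 1325 CPM, and Lama5, a laminin chain, 623 and 1546 CPM, then 1538 and 1952 CPM. Dcn, the proteoglycan decorin, had 126 and 355 CPM, then 342 and 409 CPM. In these 4 genes the 25-hydroxyvitamin D3 library was the lowest of all. Thbs1, named above, was among the 5 measured members above 0.

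Adhesion and matrix remodelling genes gave smaller groups. Of 9 measured integrins and cadherins 3 were lower, with Itgb5 at 214 CPM with 25-hydroxyvitamin D3 and 659 CPM with the SREBP inhibitor, while Itgb1 had 1930 and 1478 CPM. Only 1 of the 3 stayed lower with a pseudocount of 5 CPM. Of 18 metalloproteinases and TIMPs 3 were lower and 2 higher. The counts were 2 and 0 with a pseudocount of 5 CPM, and 3 and 0 of 15 with a minimum of 5 CPM. Timp2, an inhibitor of these proteases, had 161 and 513 CPM and Mmp19 24.6 and 68.2 CPM; the higher Mmp10 (4.02 and 0.646 CPM) and Mmp13 (1.86 and 0.388 CPM) were weakly expressed. The giant scaffold proteins Ahnak (341 and 1748 CPM) and Ahnak2 (15.6 and 171 CPM) were lower too.

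The lists that remain had few calls, beside 3.15% higher and 6.05% lower over all measured genes. A single higher gene in lists of this size is near that share. Hypoxia and glycolysis had 1 of 34 higher (Pfkfb3, 106 CPM with 25-hydroxyvitamin D3 and 51.3 CPM with the SREBP inhibitor), lysosome and autophagy 1 of 33 (Gla, 38.9 and 17.0 CPM) and widely expressed reference genes 1 of 27 (Tbp, 71.9 and 34.2 CPM). Pfkfb3 and Tbp fell under 2-fold with equal totals, FPKM totals or a pseudocount of 5 CPM, and Gla with that pseudocount. Among 22 ABC transporters Abcb1 alone passed 2-fold. Of 20 measured nuclear receptors, Thra, a thyroid hormone receptor, was lower at 93.8 and 193 CPM, and Nr1d1 was higher. Nr1d1, the heme-binding clock repressor REV-ERBα, had 143 and 17.2 CPM, then 12.6 CPM with the VDR activator and 12.6 CPM in DMSO, an 8.28-fold difference (7.46 to 9.22).

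**Figure D5:**
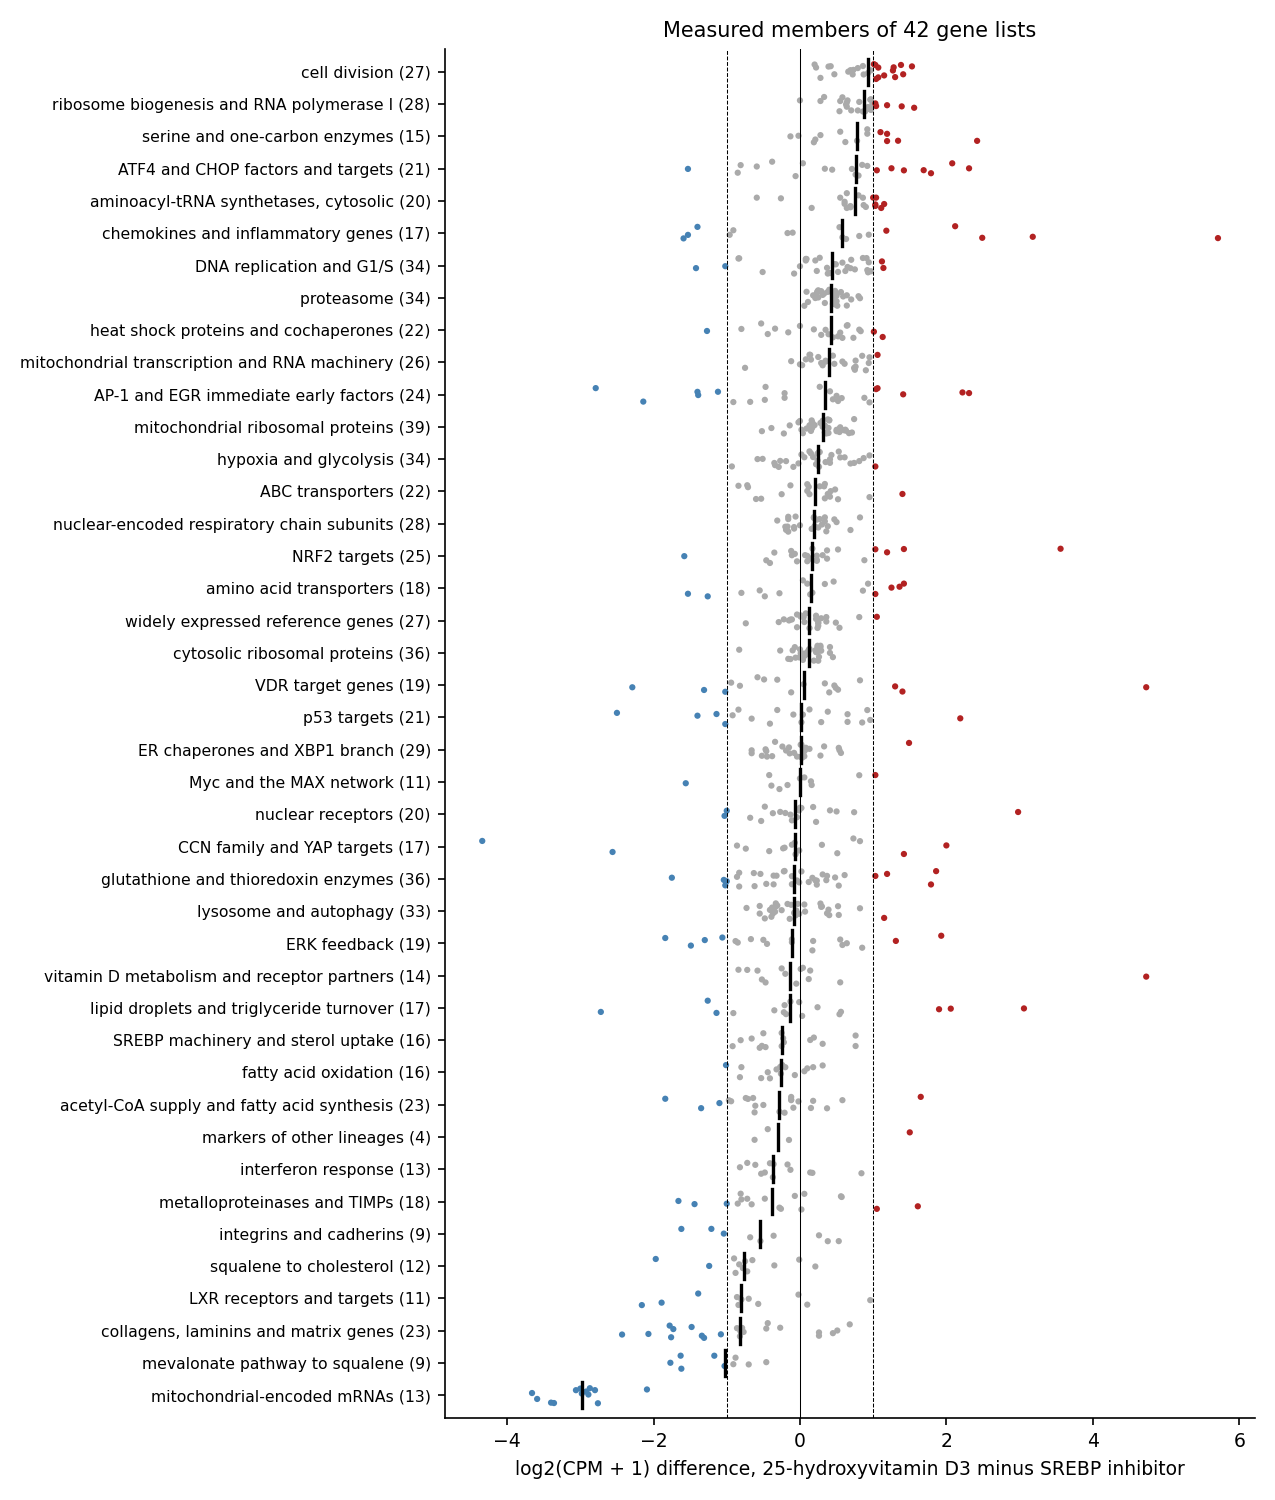
Each point is a measured member of 1 of 42 gene lists (number measured in brackets), by its log2(CPM + 1) difference, 25-hydroxyvitamin D3 minus SREBP inhibitor; black bars are list medians and dashed lines mark 2-fold. Cell division (median 0.93) and ribosome biogenesis (0.87) are at the top, and matrix genes (-0.82), the mevalonate pathway (-1.03) and the mitochondrial-encoded mRNAs (-2.98) at the bottom.

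Outside these lists, several of the most different genes encode secreted or signalling proteins. Nppb, a natriuretic peptide, had 16.1 CPM with 25-hydroxyvitamin D3 and 0.603 CPM with the SREBP inhibitor, against 0.0818 CPM with the VDR activator and 0.230 CPM in DMSO. Fst, which binds activin, had 133 and 25.1 CPM, then 10.5 and 5.94 CPM, and Ccbe1, a secreted factor of lymphatic growth, 195 and 26.8 CPM, then 12.5 and 14.6 CPM. Il4i1, a secreted amino acid oxidase, had 19.1 and 3.02 CPM, then 3.72 and 3.69 CPM. In all 4 the 25-hydroxyvitamin D3 library stood above the other 3. Also higher were Tbc1d2, a Rab GTPase-activating protein (144 and 22.6 CPM), and Tspoap1 (93.3 and 17.6 CPM).

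Other genes among the 15 lowest were expressed with the SREBP inhibitor and scarce with 25-hydroxyvitamin D3. Pcp4l1 had 0.687 CPM with 25-hydroxyvitamin D3 and 25.9 CPM with the SREBP inhibitor, then 52.1 CPM with the VDR activator and 72.4 CPM in DMSO. Angpt4, an angiopoietin, had 1.08 and 23.2 CPM, then 63.2 and 41.6 CPM. Pdzd2 (0.785 and 18.8 CPM), the prolactin-releasing hormone gene Prlh (0.491 and 14.9 CPM), the purine transporter Slc43a3 (0.442 and 11.6 CPM) and Glt8d2 (1.47 and 20.5 CPM) followed. In each of these genes DMSO was above the SREBP inhibitor, so the order of the 3 libraries was 25-hydroxyvitamin D3, then the SREBP inhibitor, then DMSO from low to high. No gene with a symbol was 2-fold above DMSO in one of the 2 treated libraries and 2-fold below it in the other.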

How the data were processed

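Poly(A) RNA libraries of CHO-K1 cells, 1 per treatment, were analysed. The authors deposited estimated counts (fractional values allowed) for each gene beside FPKM values, which divide by gene length and library total; of the FPKM only the implied totals were used. The submitters' processing notes list bcl2fastq (version 1) and TopHat2 (version 2) without saying what each did. The counting tool, strand setting, build and annotation: not given in the sources used here. Coordinates are therefore left out.

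Rows of 1 name were summed, leaving 20754 genes from 21266 rows. Of these rows 5932 carry a LOC identifier; 38 LOC genes were named from the deposited description and 507 from the RefSeq table of assembly CriGri-PICRH-1.0, used for names only. Estimated counts were rounded. Library sizes were scaled with TMM factors (0.955 for 25-hydroxyvitamin D3, 0.997 for the SREBP inhibitor, 1.03 for the VDR activator and 1.02 for DMSO) from edgeR 4.0.16 (R 4.3.3) before computing CPM. The log2(CPM + 1) differences understate those of weakly expressed genes; folds are ratios of CPM with 95% intervals from exact Clopper-Pearson limits. Reads have no molecular identifiers, so the true counting error may exceed these intervals. Genes of near-identical sequence are uncertain.

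Members, gene lists and limits were chosen with earlier results of these data known. Named were the 15 highest and 15 lowest genes that have a symbol and reach 5 CPM in the higher library, and of each list the members past 2-fold, the first and the extremes; others are named for their role in a pathway, chosen after their values were seen. The calling rule was tested on simulated counts that held counting error alone. That test therefore does not cover variation between libraries. Alternatives were DESeq2 1.42.0 size factors, other scalings, pseudocounts, minimums and limits, rows kept apart and unrounded counts. A few genes that these rules name are not reported here.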

Additional observations from a re-analysis of the deposited data

How the results depend on the processing

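The counts of 356 higher and 685 lower genes became 392 and 648 with DESeq2 size factors, 281 and 759 with equal total counts, 233 and 845 with the authors' FPKM totals, 445 and 956 with a pseudocount of 0.1 CPM and 237 and 314 with one of 5 CPM. A minimum of 5 CPM gave 336 and 561. A limit of 1.5-fold gave 1564 and 1823, and one of 4-fold 24 and 87. Of 166 named genes past 2-fold, 16 were under it with equal totals, 22 with FPKM totals, 29 with a pseudocount of 5 CPM, 4 with DESeq2 size factors and 1, Bub1b, with rows kept apart; none changed sign. Of 420 list medians recomputed, 398 moved by less than 0.15 on the log2 scale with no change of sign, 21 moved further or crossed 0 from a value near it, and 1 reversed: the markers of other lineages, 0.53 with a minimum of 5 CPM in place of -0.30, because fewer genes were left. Medians near 0 also changed sign in some settings, those of VDR targets, endoplasmic reticulum chaperones, p53 targets and the MAX network. Of genes past 2-fold lower for the VDR activator against DMSO, 29 of 35 were lower here. A pseudocount of 0.1 CPM gave 39 of 60 and one of 5 CPM 10 of 14, settings chosen after seeing the data. Of genes past 2-fold higher there, 8 of 21 were higher here. Equal totals gave 6 of 22 and FPKM totals 7 of 26. A pseudocount of 0.1 CPM gave 16 of 41 and one of 5 CPM 3 of 5. No paired analysis was possible because each treatment has 1 library. Depth limits weakly expressed genes: 10 counts is under 1 CPM in each library.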
